A study of Mus musculus with 12 samples.

Results

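The guanylate-binding proteins are a family of large interferon-induced GTPases, and the 9 genes described here (Gbp2, Gbp3, Gbp4, Gbp5, Gbp6, Gbp7, Gbp8, Gbp9 and Gbp10) are those that the deposited expression table lists under these names, out of 55401 genes in the count table. Members were taken by name and not by their values. RNA-seq counts came from 12 libraries that the labels name B16F10, a mouse melanoma line, in 4 groups of 3. The sgRnf19a_IR group carried a CRISPR guide against Rnf19a, which encodes a ubiquitin ligase of the RING-between-RING class, and had a treatment that the labels abbreviate as IR for 24 h. The control_IR group carried the control guide, sgNC, and had the same treatment, the sgRnf19a group carried the Rnf19a guide without treatment, and the control group carried sgNC without treatment. The labels name neither a clone nor a pool for the guide cells. Separate cultures within a group are not stated either, so p-values measure the spread among these libraries, which can be technical. Columns of the IR-treated libraries bear a letter D and no word for IR and were placed by elimination. These libraries are called here by the number in their column.

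Guanylate-binding proteins bind and hydrolyse guanine nucleotides and assemble on membranes. In infected mouse cells they gather on the vacuoles of intracellular parasites and bacteria, and they promote the inflammasome response to bacterial products. Their genes are among the strongest targets of interferon gamma and also respond to type I interferon, in part through the transcription factor IRF1. In mice they lie in a pair of gene clusters. In the mm10 coordinates of the deposited table, the chromosome 3 cluster spanned 144 kb on the forward strand and held, in order, Gbp5 (142493978 to 142522344), Gbp7 (142530342 to 142550149), Gbp3 (142560026 to 142573209), the non-member Gbp2b (142594847 to 142619179) and Gbp2 (142620602 to 142638008). The chromosome 5 cluster spanned 332 kb on the reverse strand and held Gbp8 (105014150 to 105053556), Gbp9 (105077630 to 105110277), Gbp4 (105115767 to 105139586), Gbp10 (105215699 to 105239533), Gbp6 (105270702 to 105293696) and the non-member Gbp11 (105323042 to 105346472).

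The promoters of the chromosome 3 members are shown because the promoter table held no other member. Whether their motifs bear on how these genes followed the guide and IR was not tested. The RefSeq promoter table (GRCm38.p6, the assembly of mm10) held 4 of the 9 members, Gbp2, Gbp3, Gbp5 and Gbp7, and the neighbour Gbp2b. Gbp4, Gbp6, Gbp8, Gbp9 and Gbp10 are named only. Each window of 300 bases, 250 before and 50 after the annotated start, was searched on both strands for the core of the interferon-stimulated response element, TTTC repeated after a gap of any 2 bases, a site of IRF factors, and for the gamma-activated site, TTCNNNGAA, named for its part in the response to interferon gamma. The 250 bases before the start are printed 5′ to 3′, with matches to either motif in capitals.
Gbp5, chr3:142496684-142496933, forward strand: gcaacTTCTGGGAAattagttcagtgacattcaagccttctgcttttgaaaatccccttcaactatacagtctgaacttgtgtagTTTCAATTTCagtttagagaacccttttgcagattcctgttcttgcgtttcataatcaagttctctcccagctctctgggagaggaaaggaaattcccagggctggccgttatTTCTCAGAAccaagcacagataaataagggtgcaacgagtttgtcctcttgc
Gbp7, chr3:142530086-142530335, forward strand: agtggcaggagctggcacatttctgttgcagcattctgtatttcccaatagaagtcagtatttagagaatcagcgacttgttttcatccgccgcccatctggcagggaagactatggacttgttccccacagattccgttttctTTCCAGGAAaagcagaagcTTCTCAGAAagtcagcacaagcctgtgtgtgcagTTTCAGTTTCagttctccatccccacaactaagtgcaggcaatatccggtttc
Gbp3, chr3:142559794-142560043, forward strand: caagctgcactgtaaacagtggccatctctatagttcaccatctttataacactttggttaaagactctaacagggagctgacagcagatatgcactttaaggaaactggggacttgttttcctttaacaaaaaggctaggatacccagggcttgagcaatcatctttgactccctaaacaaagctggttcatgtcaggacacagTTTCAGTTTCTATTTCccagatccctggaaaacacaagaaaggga
Gbp2b, chr3:142594597-142594846, forward strand: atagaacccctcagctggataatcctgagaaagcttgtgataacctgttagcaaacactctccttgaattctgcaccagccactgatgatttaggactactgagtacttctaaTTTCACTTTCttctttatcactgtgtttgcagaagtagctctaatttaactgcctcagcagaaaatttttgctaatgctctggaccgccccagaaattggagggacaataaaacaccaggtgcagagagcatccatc
Gbp2, chr3:142620413-142620662, forward strand: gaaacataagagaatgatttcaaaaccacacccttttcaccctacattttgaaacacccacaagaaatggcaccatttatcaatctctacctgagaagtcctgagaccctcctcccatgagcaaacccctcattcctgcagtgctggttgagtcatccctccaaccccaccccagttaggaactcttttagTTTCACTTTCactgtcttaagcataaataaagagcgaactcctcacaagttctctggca
All 4 members in the table held the interferon-stimulated core, against 3.43% of 32817 promoters of the same length. In Gbp2 the match, TTTCACTTTC, ended 49 bases before the start. In Gbp3 there were 2 overlapping matches, TTTCAGTTTC and TTTCTATTTC, ending 35 and 29 bases before the start, while a second annotated Gbp3 start had no match in its window. Gbp5 and Gbp7 held 1 such match each, ending 155 and 43 bases before the start. Both also held 2 gamma-activated matches, a motif found in 8.29% of promoters, and no gamma-activated match overlapped an interferon-stimulated match. Both motifs together occurred in 0.451% of promoters. Gbp2b, which had at most 18 counts in any library, held the same 10 letters as Gbp2, TTTCACTTTC. A match is a run of letters and does not show that a factor binds there. The Gbp5 window lies inside the gene as the deposited table bounds it, since RefSeq starts that transcript farther in.

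Several facts of the whole series touch these genes. Total counts ran from 34262483 to 45576326 in IR-treated libraries and from 62681644 to 71265107 in untreated ones. Ribosomal RNA genes took 11.4% to 22.2% of counts in IR-treated libraries and 0.408% to 0.813% in untreated ones. The median log2 level of protein-coding genes whose longest transcript is over 6000 bases, minus that of those under 1000 bases, was -1.58 to 0.55 in IR-treated libraries and 1.12 to 2.13 in untreated ones, so IR and the balance of long and short RNAs moved together. Within sgRnf19a_IR that value was -0.40, -1.19 and 0.55 in replicates 1, 3 and 4, which stand apart from each other. In control_IR it was -1.58, -1.33 and -1.45 in replicates 1, 4 and 5. In untreated replicates 1, 2 and 3 it was 2.04, 2.13 and 1.93 in sgRnf19a and 1.51, 1.88 and 1.12 in control. The balance thus differed between guides too, without overlap, with IR and without. Its part in the guide comparisons was not tested beyond the length and GC correction described below. In CPM, which sets each count against the TMM-scaled library size, Rnf19a itself was at 18.1, 11.6 and 37.7 CPM in sgRnf19a_IR, at 4.37, 8.06 and 5.39 CPM in control_IR, at 27.4, 25.6 and 22.6 CPM in sgRnf19a and at 33.5, 29.4 and 21.5 CPM in control. The melanocyte genes Slc45a2, Mlana, Tyrp1 and Tyr, 4 of the 8 markers listed, had no count in any library, and the others summed to 3.73 to 10.5 CPM in sgRnf19a_IR, 2.29 to 3.08 CPM in control_IR, 15.8 to 16.4 CPM in sgRnf19a and 9.53 to 13.7 CPM in control. These sums were nearly all Mitf, with group means of 6.67, 2.53, 15.9 and 11.4 CPM in that order. The highest group mean was 0.288 CPM for Pmel, 0.201 CPM for Sox10 and 0.0309 CPM for Dct. The identity of the line rests on the labels, and apart from Mitf these melanocyte markers do not bear it out. Immune cells express these GTPases strongly, and 10 immune markers summed to 24.4 to 54.0 CPM in sgRnf19a_IR, 10.6 to 29.8 CPM in control_IR, 62.1 to 72.3 CPM in sgRnf19a and 52.4 to 61.3 CPM in control. The T-cell gene Cd3e was at 0 in every library. Of the 6 immune markers tested, the median log2 fold change was 0.91 for the guide with IR and -0.24 without. It was -0.74 for IR in sgRnf19a cells and -1.39 for IR in control cells. None of these markers was called for the guide, with IR or without. Endothelial markers (4 listed) summed to 4.52 to 5.99 CPM in sgRnf19a_IR, 0.946 to 2.34 CPM in control_IR, 0.792 to 3.47 CPM in sgRnf19a and 2.07 to 4.16 CPM in control. Epithelial markers (5 listed) summed to 394 to 684 CPM in sgRnf19a_IR, 1042 to 1215 CPM in control_IR, 559 to 572 CPM in sgRnf19a and 658 to 830 CPM in control, mostly Krt8, Krt18 and Krt19. Fibroblast markers (5 listed) summed to 50.9 to 143 CPM, 64.2 to 72.7 CPM, 35.2 to 96.1 CPM and 59.0 to 87.5 CPM in the same order of groups. The part of these marker levels in the results was not tested.

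**Figure D1:**
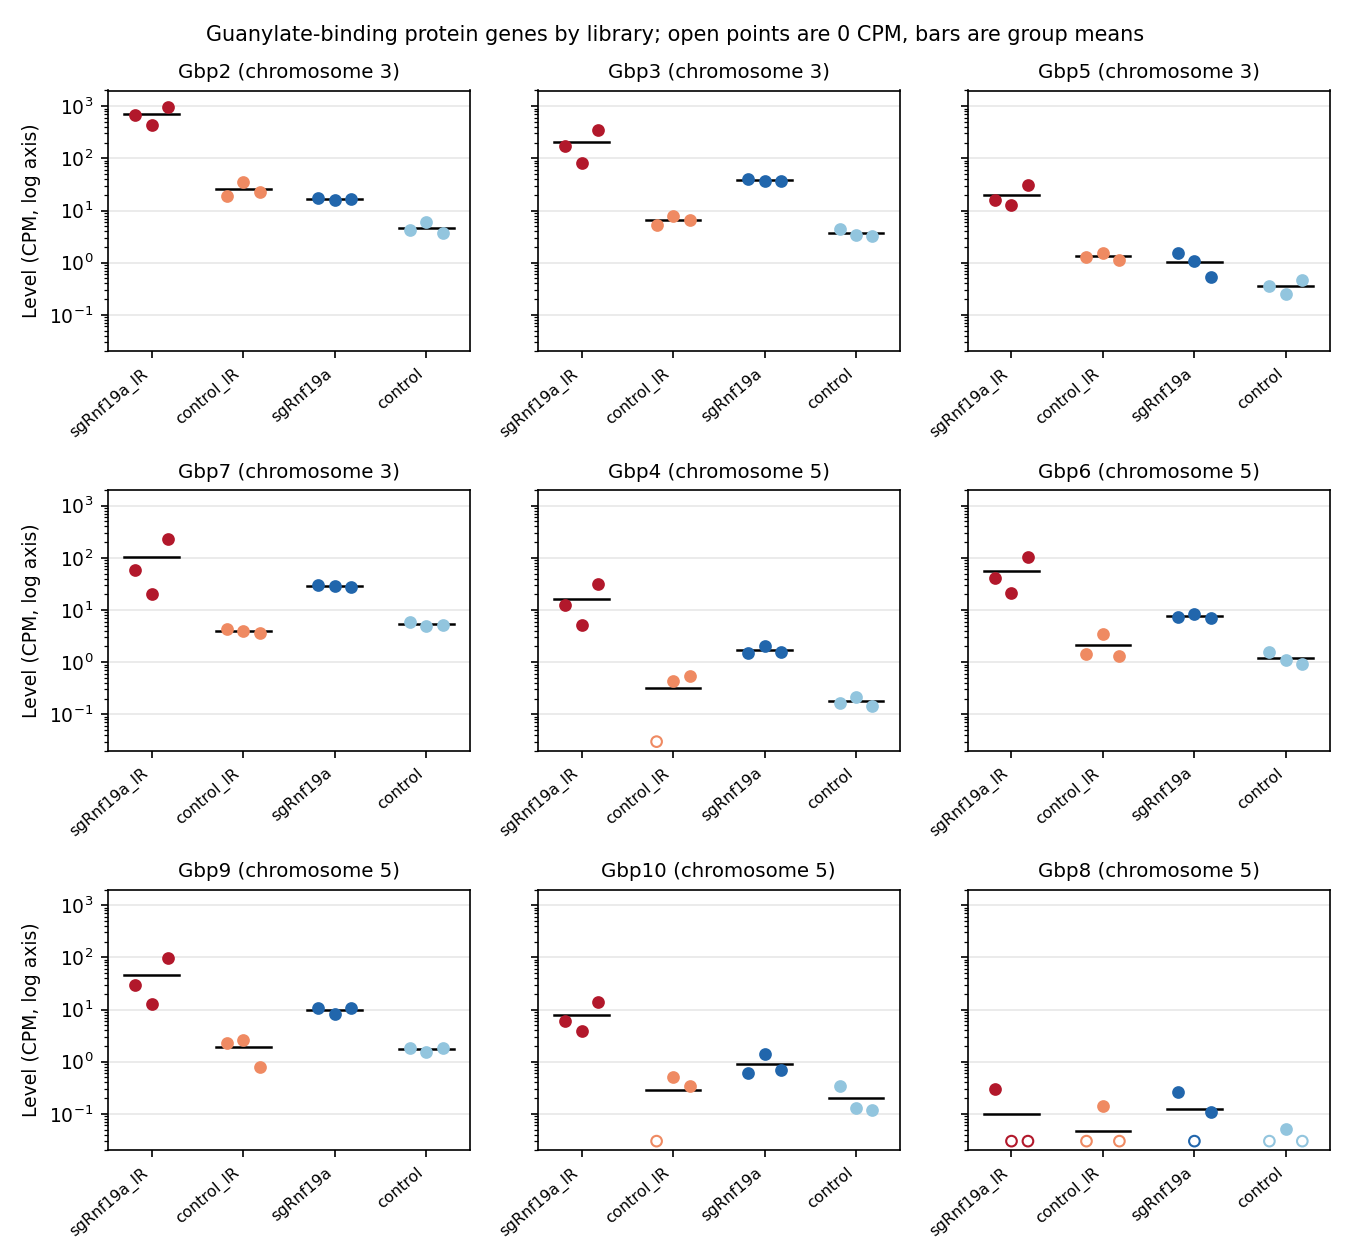
Level of each of the 9 genes in every library, in CPM (counts relative to the TMM-scaled library size) on a log axis, with 3 libraries per group and a bar at the group mean; open points mark 0 CPM. For the 8 genes other than Gbp8 the sgRnf19a_IR libraries lay highest, except that the lowest Gbp7 library of that group, at 20.1 CPM, lay below the untreated sgRnf19a libraries at 27.8 to 30.6 CPM.

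Gbp2 was the most abundant member in IR-treated cells. Mouse Gbp2 carries a lipid anchor at its end and is recruited to the vacuole of Toxoplasma. Its level was 685, 440 and 968 CPM in sgRnf19a_IR replicates 1, 3 and 4, 19.1, 35.0 and 22.6 CPM in control_IR replicates 1, 4 and 5, 17.3, 16.1 and 16.5 CPM in sgRnf19a, and 4.23, 5.95 and 3.68 CPM in control. The sgRnf19a_IR libraries were separated from all 9 others by an order of magnitude, and the control_IR and sgRnf19a libraries, both above control, did not overlap though they lay next to each other. In FPKM, the authors' unit that also divides by gene length, Gbp2 averaged 226 ± 97.2 FPKM in sgRnf19a_IR, 8.16 ± 2.86 FPKM in control_IR, 7.25 ± 0.377 FPKM in sgRnf19a and 2.06 ± 0.543 FPKM in control (SD, n = 3 each).

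Gbp5, the other member with a lipid anchor, promotes NLRP3 inflammasome assembly in mouse macrophages, and it followed the same order at a far lower level. It was at 15.9, 13.0 and 30.3 CPM in sgRnf19a_IR, 1.28, 1.52 and 1.15 CPM in control_IR, 1.53, 1.06 and 0.537 CPM in sgRnf19a, and 0.360, 0.246 and 0.469 CPM in control. The control_IR and sgRnf19a libraries overlapped, and both groups lay above control. Its mean level was 2.40 ± 1.21 FPKM in sgRnf19a_IR and 0.0575 ± 0.0193 FPKM in control (SD, n = 3 each).

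Gbp3 and Gbp7 had another order of groups. Gbp3 was at 173, 82.7 and 355 CPM in sgRnf19a_IR, 5.29, 7.77 and 6.60 CPM in control_IR, 41.0, 37.2 and 36.7 CPM in sgRnf19a, and 4.41, 3.42 and 3.24 CPM in control. Untreated sgRnf19a cells thus held more Gbp3 than IR-treated control cells in every library, which was not so for Gbp2. Gbp3 averaged 51.2 ± 35.9 FPKM in sgRnf19a_IR, 1.60 ± 0.360 FPKM in control_IR, 12.9 ± 0.985 FPKM in sgRnf19a and 1.26 ± 0.201 FPKM in control (SD, n = 3 each).

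Gbp7, which mouse macrophages need for full defence against intracellular bacteria, was at 58.3, 20.1 and 232 CPM in sgRnf19a_IR, 4.37, 3.90 and 3.59 CPM in control_IR, 30.6, 28.9 and 27.8 CPM in sgRnf19a, and 5.86, 4.90 and 5.17 CPM in control. Replicate 3 of sgRnf19a_IR lay below all 3 untreated sgRnf19a libraries, so these groups overlapped, and the control_IR libraries lay just below the control libraries. Gbp7 averaged 15.2 ± 16.6 FPKM in sgRnf19a_IR, 0.558 ± 0.0264 FPKM in control_IR, 5.68 ± 0.361 FPKM in sgRnf19a and 1.06 ± 0.0843 FPKM in control (SD, n = 3 each).

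On chromosome 5, Gbp9 and Gbp6 reached the highest levels. Gbp9 was at 29.6, 12.5 and 97.0 CPM in sgRnf19a_IR, 2.31, 2.55 and 0.805 CPM in control_IR, 10.6, 8.09 and 10.9 CPM in sgRnf19a, and 1.81, 1.55 and 1.83 CPM in control. The control_IR and control libraries overlapped. Gbp6 was at 40.7, 21.2 and 105 CPM in sgRnf19a_IR, 1.46, 3.53 and 1.31 CPM in control_IR, 7.44, 8.45 and 7.04 CPM in sgRnf19a, and 1.55, 1.10 and 0.938 CPM in control, with the same overlap. Per length, Gbp6 averaged 7.68 ± 6.18 FPKM and Gbp9 7.37 ± 7.13 FPKM in sgRnf19a_IR, values that cannot be ranked within this spread (SD, n = 3).

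Gbp4 and Gbp10 were rare outside sgRnf19a_IR. Gbp4, whose mouse protein has been reported to bind the transcription factor IRF7, was at 12.4, 5.07 and 32.2 CPM in sgRnf19a_IR, 0, 0.430 and 0.536 CPM in control_IR, 1.53, 2.04 and 1.60 CPM in sgRnf19a, and 0.166, 0.220 and 0.144 CPM in control. Gbp10 was at 6.01, 3.83 and 13.9 CPM in sgRnf19a_IR, 0, 0.516 and 0.349 CPM in control_IR, 0.614, 1.42 and 0.689 CPM in sgRnf19a, and 0.346, 0.130 and 0.120 CPM in control. For both genes every sgRnf19a_IR library lay above the 9 others, and control_IR overlapped control. Both passed the low-count filter chiefly through the sgRnf19a groups: 3 of 3 libraries reached its minimum of 0.185 CPM in sgRnf19a_IR and in sgRnf19a, against 2 of 3 for either gene in control_IR, and 2 of 3 for Gbp4 and 1 of 3 for Gbp10 in control.

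Gbp8 was hardly detected. It had 13, 0 and 0 counts in sgRnf19a_IR, 0, 5 and 0 in control_IR, 20, 0 and 8 in sgRnf19a, and 0, 4 and 0 in control, and it did not pass the filter. A read pair is worth about 4 of these counts, so group sums of 13, 5, 28 and 4 stand against a floor of 12 counts over a group, which covers counting error only. No fold change is given for it. The non-member neighbours were as low, with at most 18 counts in any library for Gbp2b and 20 for Gbp11.

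Near-identical copies limit what can be said of some members. Of the 37-base stretches in Gbp10 transcripts (the read length), 88.2% also occurred in another gene, 78.4% in Gbp6 and 75.3% in the predicted gene Gm43302. For Gbp6 72.7% were shared, 66.9% with Gm43302 and 49.7% with Gbp10. Counts of Gbp6 and Gbp10 are therefore uncertain one by one. Gm43302 had 603, 0 and 1186 counts in sgRnf19a_IR, 22, 45 and 29 in control_IR, 172, 0 and 118 in sgRnf19a and 44, 64 and 22 in control, a jump to 0 in single libraries that Gbp6 did not show. The shared part was 26.1% for Gbp8, 14.1% for Gbp9, 14% for Gbp7, 11.8% for Gbp4 and under 5% for Gbp3 (4.95%), Gbp2 (3.5%) and Gbp5 (1.61%).

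**Figure D2:**
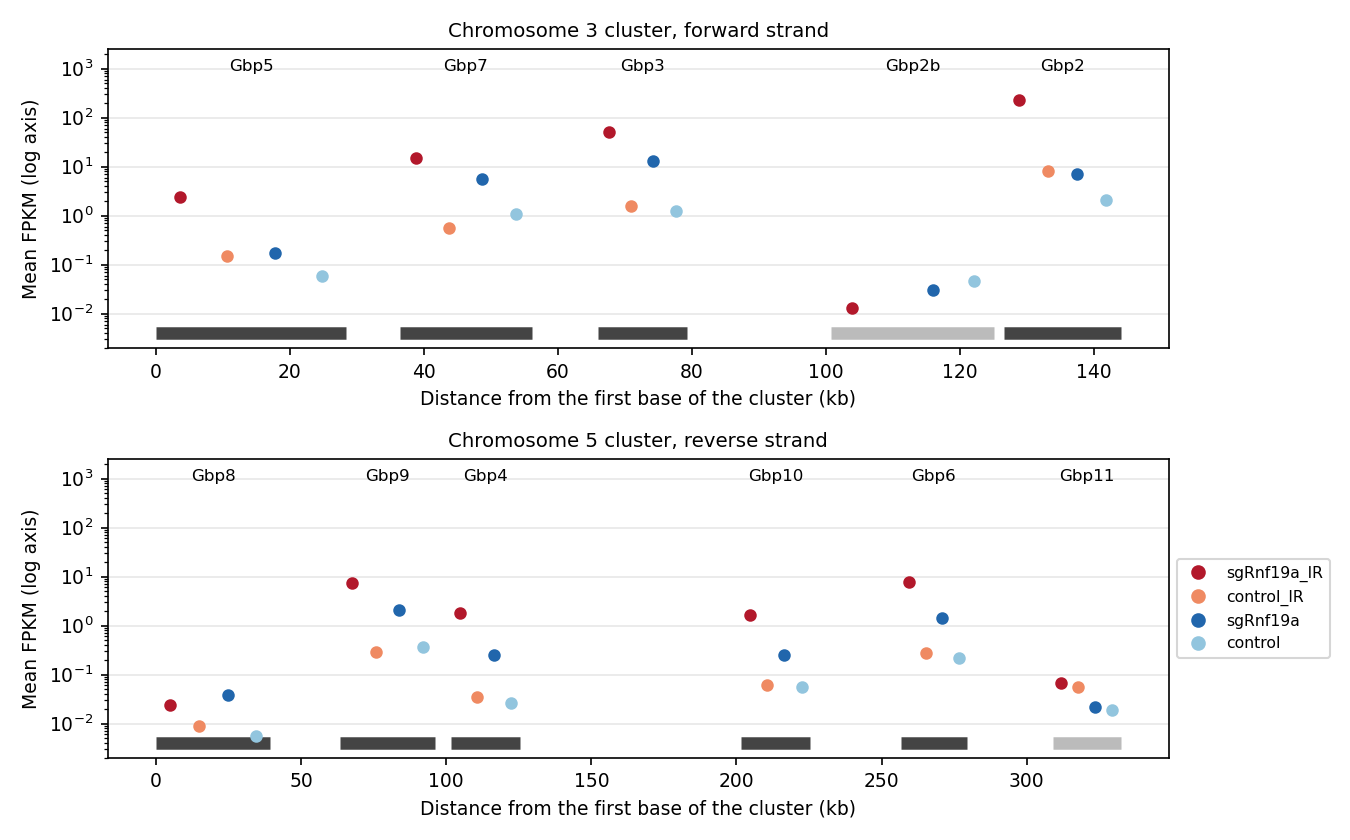
Mean FPKM (log axis, n = 3 libraries) of each gene against its position in the chromosome 3 and chromosome 5 clusters, in kb from the first base of the cluster; dark bars are members, light bars the non-members Gbp2b and Gbp11, and the 4 points above a bar are the groups from left to right in the order of the legend. Gbp2 in sgRnf19a_IR, at 226 FPKM, stands highest, next to Gbp2b, whose 4 means are under 0.05 FPKM (0 in control_IR, not drawn).

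The family's summed level and its make-up both differed among groups. The 9 genes summed to 314 ± 164 FPKM in sgRnf19a_IR, 11.1 ± 3.51 FPKM in control_IR, 30.0 ± 1.88 FPKM in sgRnf19a and 5.12 ± 0.543 FPKM in control (SD, n = 3 each). In bulk RNA a change in RNA per cell and a change in the number of expressing cells cannot be told apart. Gbp2 made up 75.0% ± 8.22 of the sum in sgRnf19a_IR and 72.7% ± 2.60 in control_IR, against 24.2% ± 0.479 in sgRnf19a and 39.9% ± 7.49 in control. Gbp3 made up 15.1% ± 3.38 in sgRnf19a_IR and 14.7% ± 1.77 in control_IR, against 42.9% ± 0.588 in sgRnf19a and 24.7% ± 3.23 in control. Gbp7 made up 3.90% ± 2.83 in sgRnf19a_IR and 5.35% ± 1.70 in control_IR, against 18.9% ± 0.294 in sgRnf19a and 20.8% ± 2.64 in control. The make-up of the IR-treated groups thus lay close together with either guide, while their sums differed. Of the 8 tested members, Gbp2 has the shortest annotated transcript, 2516 bases, and Gbp7 the longest, 5614 bases, and IR also moved the balance of long and short RNAs, whose part in these shares was not tested.

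**Figure D3:**
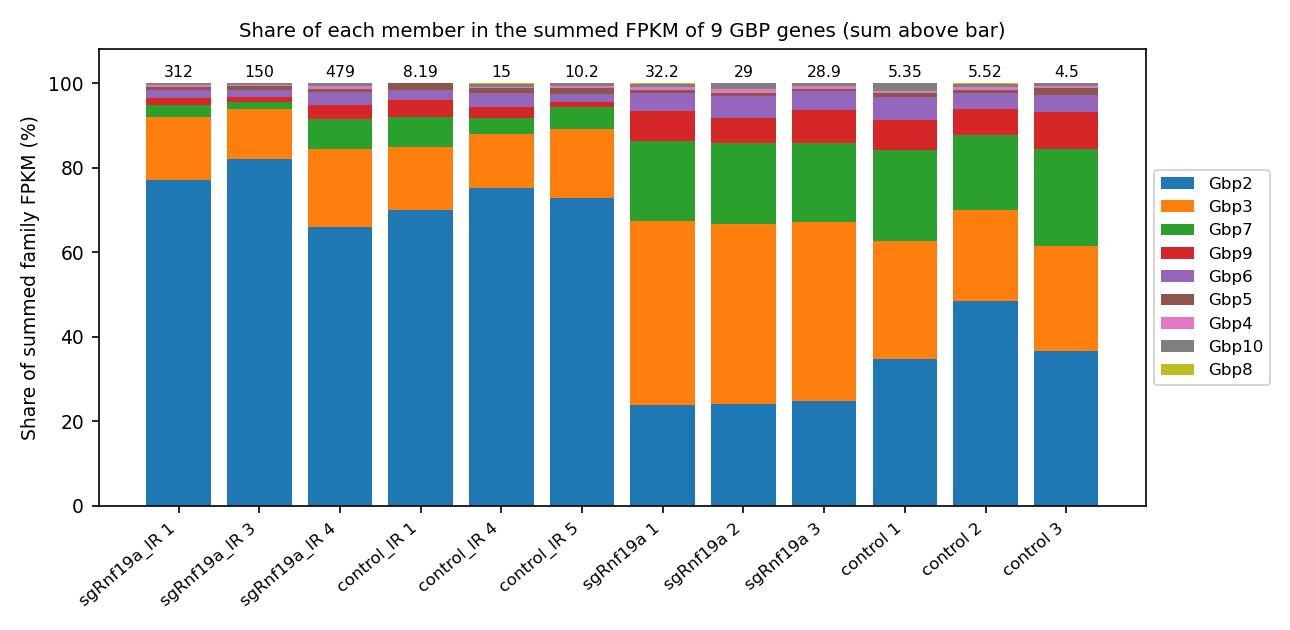
Share of each gene in the summed FPKM of the 9 genes, in percent, per library, with the sum above each bar. Gbp2 fills 65.9% to 82.0% of the bar in the 6 IR-treated libraries and 23.8% to 48.5% in the 6 untreated ones.

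The comparison of the guides after IR asks what the Rnf19a guide changed in treated cells. All 8 members that passed the filter, of 9, rose in sgRnf19a_IR over control_IR, where 21.0% of all 18183 genes tested were called higher. Gbp4 differed most among the members, by 49.1-fold against a group with a library at 0 (5.62 on the log2 scale with an SE of 0.83, edgeR adjusted p = 0.000673). Gbp3 followed at 31.0-fold (4.95 on the log2 scale with an SE of 0.45, edgeR adjusted p = 2.44e-05) and Gbp2 at 27.3-fold (4.77 with an SE of 0.34, edgeR adjusted p = 3.32e-06). Gbp6, Gbp10, Gbp7 and Gbp9 lay between 24.7-fold and 26.5-fold, and Gbp5 rose least, by 3.90 on the log2 scale (SE of 0.44, edgeR adjusted p = 0.000106). No member's libraries overlapped, as for 23.0% of all genes in this direction. The median log2 fold change was 4.73 over the 8 members and 0.07 over all genes.

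These calls are by edgeR's quasi-likelihood test with Benjamini-Hochberg adjustment over all genes, at an adjusted p under 0.05, and they held in all 23 alternatives tried. The sizes moved more. Without sgRnf19a_IR replicate 4, the log2 fold changes ran from 3.32 for Gbp7 to 4.70 for Gbp4. A further fit corrected for each library's trend with transcript length and GC content, as fitted over all genes. The log2 fold changes then ran from 3.34 for Gbp7 to 4.54 for Gbp4. The member median was 3.73 against -0.06 over all genes, of which 11.4% were called higher. Among the 8 members the ratio of sgRnf19a_IR replicate 4 to replicate 3 still rose with transcript length after this correction (Spearman's rho of 0.86).

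The comparison of the guides without IR asks what the Rnf19a guide changed in untreated cells. In sgRnf19a over control, 6 of the 8 members tested rose, where 3.02% of all genes were called higher. Gbp3 rose most, by 10.4-fold (3.38 on the log2 scale with an SE of 0.42, edgeR adjusted p = 0.000371). Gbp4 followed at 9.65-fold (SE 0.77 on a log2 fold change of 3.27), then Gbp6 at 6.39-fold, Gbp9 at 5.69-fold and Gbp7 at 5.47-fold. Gbp2 rose least of the called members, by 3.60-fold (1.85 on the log2 scale with an SE of 0.30, edgeR adjusted p = 0.00267). Gbp5, at 1.54 on the log2 scale (SE of 0.43, edgeR adjusted p = 0.0575), and Gbp10, at 2.19 (SE of 0.78, edgeR adjusted p = 0.152), did not pass. All 8 had every sgRnf19a library above every control library, as did 22.3% of all genes. The median was 2.48 over the 8 members and 0.03 over all genes. After the length and GC correction 7 members were called, Gbp5 among them (edgeR adjusted p = 0.0335), where 4.05% of all genes were.

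The number of members called here depended on single libraries, since 3 per group leave little room. It was 3 without sgRnf19a replicate 2, control replicate 1 or control replicate 2, and 2 without control replicate 3, and it was 7 without sgRnf19a_IR replicate 3 or 4. The share of all genes called higher moved too: it was 1.83%, 1.94%, 2.14% and 1.90% without those sgRnf19a and control libraries in the order given, and 3.34% and 5.08% without sgRnf19a_IR replicates 3 and 4. Gbp2 and Gbp3 were called in all 23 alternatives. Gbp7 and Gbp9 lost their call without any 1 of the 6 untreated libraries (edgeR adjusted p from 0.0873 to 0.141 for Gbp7 and from 0.0634 to 0.116 for Gbp9), although their log2 fold changes stayed between 2.40 and 2.64. Gbp7 also lost it without sgRnf19a_IR replicate 1 (edgeR adjusted p = 0.0523) or any control_IR library (edgeR adjusted p from 0.0576 to 0.0606). Gbp4 lost its call without sgRnf19a replicate 2 or 3 or any control library (edgeR adjusted p from 0.0600 to 0.112), and Gbp6 without control replicate 3 (edgeR adjusted p = 0.0600).

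IR in sgRnf19a cells raised all 8 members tested, where 18.0% of all genes were called higher. Gbp2 rose by 42.0-fold (5.39 on the log2 scale with an SE of 0.35, edgeR adjusted p = 2.11e-06) and ranked 82 of 18183 genes by log2 fold change. Gbp5 followed at 18.8-fold (4.24 with an SE of 0.44, edgeR adjusted p = 6.84e-05). Gbp4, Gbp10 and Gbp6 rose 9.61-fold, 8.73-fold and 7.30-fold, and Gbp3 5.31-fold (2.41 on the log2 scale with an SE of 0.40, edgeR adjusted p = 0.000820). Gbp9 rose 4.70-fold (SE 0.60 on a log2 fold change of 2.23) and Gbp7 3.56-fold (1.83 with an SE of 0.61, edgeR adjusted p = 0.0345). The libraries did not overlap for 7 of the 8, as for 23.2% of all genes in this direction. The median was 3.0 over the 8 members and -0.02 over all genes.

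The weakest of these rises rested on few libraries. Without sgRnf19a_IR replicate 4 the log2 fold change of Gbp7 was 0.43 (edgeR adjusted p = 0.280) and that of Gbp9 1.09 (edgeR adjusted p = 0.0393), while Gbp2 was at 5.07, Gbp5 at 3.78, Gbp10 at 2.43, Gbp4 at 2.33, Gbp6 at 2.01 and Gbp3 at 1.73, all called. The Gbp7 call was also lost without any of the untreated sgRnf19a libraries (edgeR adjusted p from 0.0800 to 0.0939), and that of Gbp9 without sgRnf19a replicate 2 (edgeR adjusted p = 0.0521). In all, Gbp7 was called in 13 of 23 alternatives and Gbp9 in 17. With only the groups compared neither passed (edgeR adjusted p = 0.127 for Gbp7 and 0.0542 for Gbp9), nor did either with the replicate block (0.491 and 0.0847) or by limma on any FPKM scale (limma adjusted p from 0.290 to 0.467 for Gbp7 and from 0.0526 to 0.149 for Gbp9), and Gbp7 did not pass without the filter on low counts (edgeR adjusted p = 0.0862). After the length and GC correction all 8 were called, from 2.24 for Gbp7 to 5.44 for Gbp2, where 19.1% of all genes were called higher.

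In control cells IR raised Gbp2 and Gbp5, 2 of the 8 members tested, where 22.2% of all genes were called higher and 25.7% lower. Gbp2 rose by 5.53-fold (2.47 on the log2 scale with an SE of 0.31, edgeR adjusted p = 0.000110) and Gbp5 by 3.65-fold (1.87 with an SE of 0.44, edgeR adjusted p = 0.00392). Gbp2 was called in all 23 alternatives and Gbp5 in 19. Of the others, Gbp3 was at 0.83 (SE 0.40, edgeR adjusted p = 0.106), Gbp4 at 0.92 (SE 0.84), Gbp6 at 0.82 (SE 0.54), Gbp10 at 0.59 (SE 0.85), Gbp9 at 0.12 (SE 0.62) and Gbp7 at -0.43 (SE 0.62), all log2 fold changes that did not pass. The libraries did not overlap for 4 of the 8, with Gbp2, Gbp3 and Gbp5 above control and Gbp7 below. Every treated library lay above every control library for 30.0% of all genes and below for 32.1%. The median was 0.82 over the 8 members and -0.02 over all genes. Without sgRnf19a_IR replicate 3 or 4, which enter through the shared spread, Gbp3 passed as well (log2 fold change 0.82 in either case, edgeR adjusted p = 0.0171 and 0.0140).

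The calls in this comparison depended on the processing. After the length and GC correction, 7 of the 8 members were called higher, where 24.3% of 18159 genes were, and the member median was 1.82 against 0.09 over all genes. Gbp7 was at 1.14, against -0.43 before (SE 0.42, edgeR adjusted p = 0.0457), Gbp6 was at 2.14, Gbp4 at 2.13, Gbp9 at 1.51 and Gbp3 at 1.32, and Gbp10 at 1.52 did not pass (edgeR adjusted p = 0.118). Whether the correction takes out only a technical trend was not tested. With a replicate block on the column numbers the member median was -0.32, against -0.05 over all genes, and Gbp5 was at 1.29 and lost its call (edgeR adjusted p = 0.0533). This block is in part confounded with IR: numbers 4 and 5 occur only among IR-treated libraries and number 2 only among untreated ones. Control and control_IR share only number 1, so the block fit cannot separate the numbers from IR here.

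**Figure D4:**
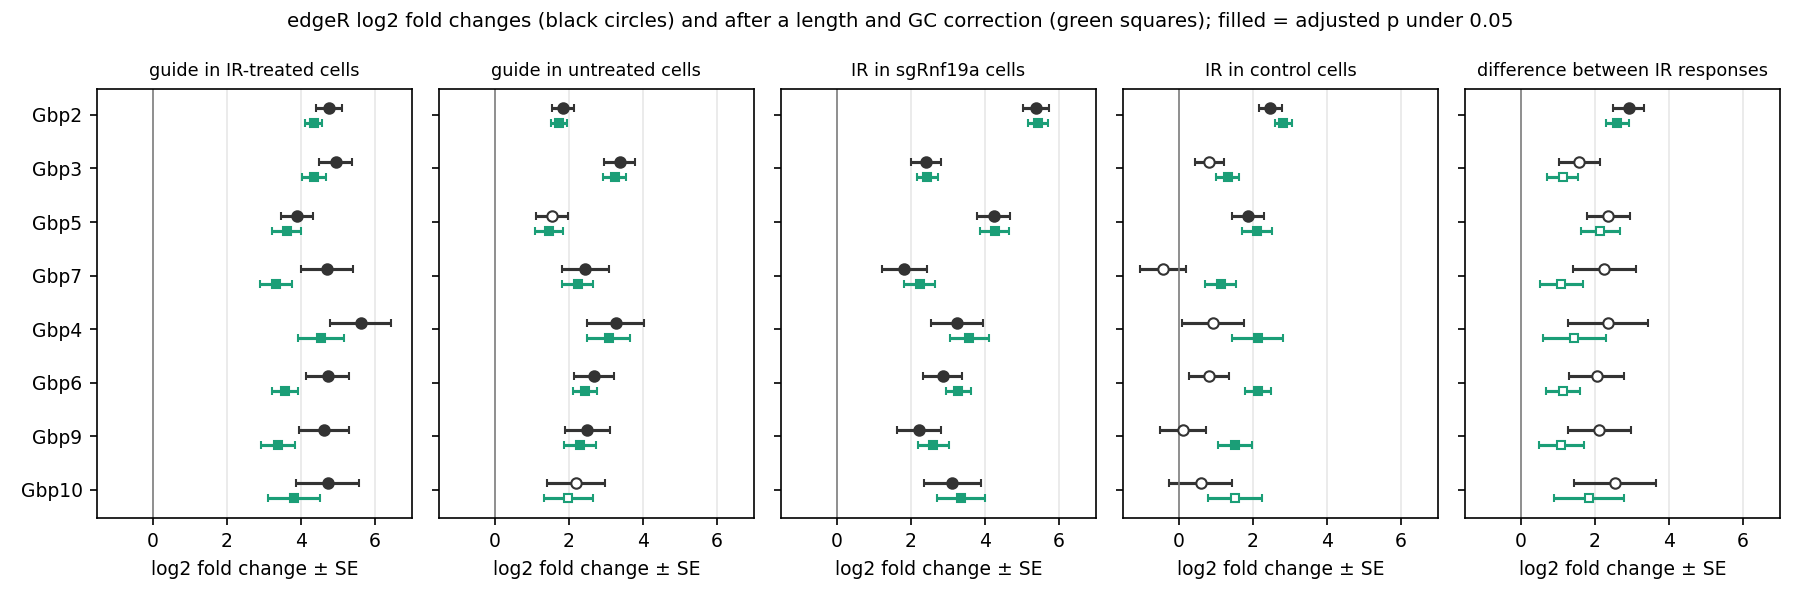
The log2 fold change and its standard error for the 8 tested members in the 5 comparisons, by edgeR on the counts (black circles) and after the length and GC correction (green squares); filled symbols have an adjusted p under 0.05. Circles are all filled for the guide in IR-treated cells and for IR in sgRnf19a cells, 6 of 8 for the guide in untreated cells, 2 of 8 for IR in control cells and 1 of 8 for the difference.

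Whether IR acted differently with the Rnf19a guide was tested by the difference between the IR responses, the log2 fold change in sgRnf19a cells minus that in control cells. Gbp2 passed, with a 7.59-fold larger IR response in sgRnf19a cells (difference 2.92 on the log2 scale, SE 0.42, edgeR adjusted p = 0.0162), where 0.544% of all genes were called higher. Gbp2 was also called after the length and GC correction (difference 2.61, SE 0.31, edgeR adjusted p = 0.00329), where 1.13% of all genes were called higher, and without sgRnf19a_IR replicate 4 (difference 2.62, edgeR adjusted p = 0.00485). The call was lost without control_IR replicate 1 (edgeR adjusted p = 0.0556), control_IR replicate 5 (edgeR adjusted p = 0.0755), sgRnf19a replicate 2 (edgeR adjusted p = 0.0651) or sgRnf19a replicate 3 (edgeR adjusted p = 0.0695), with differences of 2.75 to 2.92.

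The other 7 members had positive differences that did not pass, so it is not shown that their IR responses differed between guides, nor that they were alike. They were 2.54 for Gbp10 (SE 1.11), 2.37 for Gbp5 (SE 0.59, edgeR adjusted p = 0.0862), 2.35 for Gbp4 (SE 1.08), 2.26 for Gbp7 (SE 0.86), 2.12 for Gbp9 (SE 0.85), 2.05 for Gbp6 (SE 0.74) and 1.58 for Gbp3 (SE 0.55). The median was 2.30 over the 8 members and 0.09 over all genes. Without sgRnf19a_IR replicate 3, 6 members passed, all but Gbp4 and Gbp10, and 10.6% of all genes were then called higher. After the length and GC correction the member median was 1.30. The 5 comparisons share groups of libraries, so their values are set side by side and are not independent of each other.

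The spread within sgRnf19a_IR differed from gene to gene. The ratio of replicate 4 to replicate 3 in FPKM was 2.57 for Gbp2, 2.74 for Gbp5, 4.31 for Gbp10, 5.02 for Gbp3, 5.82 for Gbp6, 7.53 for Gbp4, 9.12 for Gbp9 and 13.5 for Gbp7. It rose with the longest annotated transcript, from 2516 bases for Gbp2 to 5614 for Gbp7, with Spearman's rho of 0.90 across these 8 genes, which share their libraries. After the length and GC correction the ratios ran from 1.62 for Gbp2 to 5.04 for Gbp7 and rho was 0.86. In untreated sgRnf19a cells the highest over the lowest library lay between 1.11 for Gbp2 and 1.35 for Gbp9 in 6 members and was 2.25 for Gbp10 and 2.96 for Gbp5, so that of Gbp5 was above its 2.74 in sgRnf19a_IR.

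**Figure D5:**
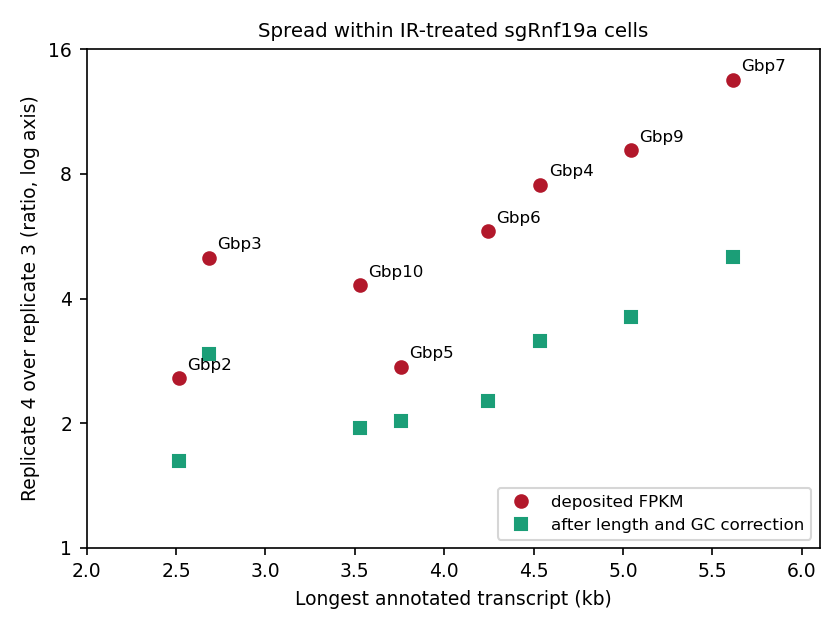
Ratio of sgRnf19a_IR replicate 4 to replicate 3 (log axis) against the longest annotated transcript in kb for the 8 tested members, from the deposited FPKM (circles, named) and after the length and GC correction (squares). Gbp7 stands highest at 13.5 and Gbp2 lowest at 2.57, and the corrected ratios run from 1.62 to 5.04.

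Across the 12 libraries the members did not all move as 1 block. The highest pairwise Pearson correlations of log2 CPM were 0.987 between Gbp3 and Gbp6, 0.979 between Gbp5 and Gbp2, 0.978 between Gbp4 and Gbp10 and 0.974 between Gbp7 and Gbp9. The lowest were 0.713 between Gbp7 and Gbp2 and 0.723 between Gbp5 and Gbp7, which are neighbours on chromosome 3. The pairs Gbp3 and Gbp6, and Gbp7 and Gbp9, lie on different chromosomes. Gbp7 and Gbp9 also have the longest annotated transcripts of the tested members, 5614 and 5043 bases, and Gbp2 the shortest, 2516 bases. The part of the balance of long and short RNAs in these correlations was not tested. All points share libraries and conditions, so these are descriptions.

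Outside the family, the genes whose pattern over the 12 libraries was most like the mean of the 8 members, of 10730 named genes compared, were Eda2r (Pearson r 0.992), Ifi205 (0.991), Nlrc5 (0.990), Parp11 (0.988), Dtx3l (0.988) and Tlr3 (0.988). Tlr3 averaged 205 ± 183 CPM in sgRnf19a_IR, 6.48 ± 1.02 CPM in control_IR, 30.0 ± 0.619 CPM in sgRnf19a and 5.96 ± 0.692 CPM in control. Nlrc5, the activator of MHC class I genes, averaged 120 ± 33.7, 13.6 ± 2.10, 30.5 ± 0.911 and 11.6 ± 1.74 CPM in the same order of groups (SD, n = 3 each). Eda2r averaged 97.9 ± 38.1, 29.4 ± 5.41, 48.4 ± 2.50 and 24.6 ± 1.15 CPM in that order. A high correlation does not mean a change of like size. The log2 fold change of Eda2r for the guide with IR was 1.74, against a median of 4.73 over the members.

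Among the genes that induce the family, Ifnb1, which encodes interferon beta, was at 24.9 ± 3.15 CPM in sgRnf19a_IR, 21.1 ± 4.19 CPM in control_IR, 0.252 ± 0.133 CPM in sgRnf19a and 0.194 ± 0.0472 CPM in control (SD, n = 3 each). It rose with IR with either guide (log2 fold changes 6.62 and 6.75 in sgRnf19a and control cells), and the guide comparisons did not pass (edgeR adjusted p = 0.534 with IR and 0.694 without). Ifng had 0 counts in every library. Irf1, whose product drives Gbp2 in mouse cells, was at 316 ± 14.0 CPM in sgRnf19a_IR, 128 ± 18.9 CPM in control_IR, 60.2 ± 2.94 CPM in sgRnf19a and 52.1 ± 2.44 CPM in control. Its IR response was larger in sgRnf19a cells (difference 1.10 on the log2 scale, SE 0.18, edgeR adjusted p = 0.0255), and without IR its guide difference did not pass (log2 fold change 0.21, edgeR adjusted p = 0.460). Of 20 regulators tested, 11 rose with the guide in IR-treated cells (4 fell), 5 rose with the guide in untreated cells, 10 rose with IR in sgRnf19a cells (2 fell) and 12 in control cells (4 fell). Over all genes 12.8% were called lower with the guide in IR-treated cells, 3.20% with the guide in untreated cells and 17.6% with IR in sgRnf19a cells. Called higher in these were 21.0%, 3.02% and 18.0%, and with IR in control cells 22.2% were higher and 25.7% lower. Usp18, a brake on interferon signalling, and Irf1 passed for the difference between IR responses.

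Related GTPases gave a mixed picture. Of 7 immunity-related GTPases tested, of 12 listed, which act with guanylate-binding proteins on parasite vacuoles in mice, 6 rose in each of the 4 comparisons of groups, all but Irgq, with list medians of 3.87 for the guide with IR, 2.78 for the guide without IR, 3.81 for IR in sgRnf19a cells and 2.74 for IR in control cells. In the same order of comparisons 21.0%, 3.02%, 18.0% and 22.2% of all genes were called higher. Tgtp2 passed for the difference (1.85, SE 0.32, edgeR adjusted p = 0.0318). Tgtp1 and Tgtp2 are near-identical copies and uncertain one by one. Of 8 other large GTPases, the antiviral genes Mx1 and Mx2 rose in all 4 comparisons of groups, Mx1 by 23.2-fold with the guide in IR-treated cells and 3.20-fold without IR. Mx1 also passed for the difference (2.86, SE 0.45, edgeR adjusted p = 0.0255), where 0.544% of all genes were called higher. With the guide in IR-treated cells 6 of the 8 rose, and 2 after the length and GC correction. With IR, 4 of the 8 fell in control cells and 1 in sgRnf19a cells, and 1 in either after the correction. Before the correction 25.7% of all genes were called lower with IR in control cells and 17.6% in sgRnf19a cells.

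Partners of the family were less uniform. Of 15 genes of the conjugation machinery and ubiquitin ligases that meet guanylate-binding proteins on vacuoles, 10 rose and 1 fell with IR in sgRnf19a cells, 10 rose and 2 fell with IR in control cells, 3 rose and 2 fell with the guide in IR-treated cells, and 2 rose and 1 fell with the guide in untreated cells. With the guide in IR-treated cells these counts are near the shares over all genes, 21.0% higher and 12.8% lower. The shares were 18.0% higher and 17.6% lower for IR in sgRnf19a cells, and 22.2% and 25.7% for IR in control cells. For the guide in untreated cells they were 3.02% and 3.20%. Both ubiquitin ligase genes Trim21 and Rnf213 rose with the guide, Trim21 8.58-fold with IR and 2.80-fold without, Rnf213 9.11-fold and 4.13-fold. Rnf213 spread widely in sgRnf19a_IR, at 1384 ± 942 CPM against 152 ± 17.2 CPM in control_IR. Trim21 was at 144 ± 27.5 CPM and 16.8 ± 2.66 CPM in these groups (SD, n = 3 each). Of 11 inflammasome genes, the nucleic acid sensor gene Zbp1 rose in all 5 comparisons, including the difference (1.29, SE 0.18, edgeR adjusted p = 0.0154). Casp4, whose product, caspase-11 in mice, acts on bacterial lipopolysaccharide together with guanylate-binding proteins, rose 6.13-fold with the guide in IR-treated cells (edgeR adjusted p = 0.00650) and was at 13.8 ± 13.3 CPM in sgRnf19a_IR against 2.24 ± 0.807 CPM in control_IR (SD, n = 3 each). Its log2 fold change there was 2.62, and 1.46 after the length and GC correction (edgeR adjusted p = 0.00963). Of the 11, 5 rose and 1 fell with the guide in IR-treated cells, 1 rose with the guide in untreated cells, 5 rose and 1 fell with IR in sgRnf19a cells, and 3 rose and 4 fell with IR in control cells. The shares over all genes are those given above for the partners. For IR in control cells the counts are near these shares, 22.2% higher and 25.7% lower. Of 6 genes that attach or process lipid anchors of proteins, 1 rose and 1 fell with IR in sgRnf19a cells, and 2 rose and 1 fell in control cells. With the guide, 2 rose and 1 fell in IR-treated cells, and none was called in untreated cells. The shares over all genes are again those given for the partners, and no result is read from these small counts. Pggt1b, a subunit of geranylgeranyl transferase, fell with IR by 2.40 on the log2 scale in control cells and by 1.15 in sgRnf19a cells. The farnesyl transferase subunit Fnta rose with IR, 1.84-fold in sgRnf19a cells and 1.81-fold in control cells. After the length and GC correction the log2 fold change of Pggt1b with IR was -0.40 in sgRnf19a cells (edgeR adjusted p = 0.0619) and -0.57 in control cells.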

How the data were processed

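Qiagen RNeasy RNA from pelleted cells was depleted of ribosomal RNA and made into NEB RNA Ultra Directional libraries with 12 PCR cycles and paired reads of 37 bp, per the labels' protocols. The submitters' processing notes name mm10, GRCm39, Bowtie2, HTSeq and DESeq2; neither roles nor versions nor strandedness of counting is given in the sources used here. The authors deposited counts per gene, treated here as estimated counts because low values pile up at 4 (12162 values of 4, against 4921 of 3 and 3525 of 5), and, per the file headers, FPKM per library. A further 12 columns of counts beside the FPKM values were not used. Reads carry no molecular identifiers, so floors cover counting error only.

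The filter was edgeR's filterByExpr (version 4.0.16; at least 10 counts in enough libraries and 15 in total). TMM scaling and the quasi-likelihood test, 2-sided, were fitted in R 4.3.3 to all 12 libraries with 4 group means. The SE is the size of the log2 fold change divided by the square root of F. As alternatives, DESeq2 1.42.0 was run, edgeR was rerun with the DESeq2 size factors, with upper-quartile scaling, without the filter, with only the groups compared, on counts divided by 4, with a replicate block, and with each library's spline on transcript length and on GC content (5 degrees of freedom; GENCODE M21) as an offset, and each library was left out in turn. Further, limma 3.58.1 was fitted to log2(FPKM + 1) and log2(FPKM + 0.1), keeping genes that averaged 0.5 FPKM, and to log2(FPKM + 1) of all genes; such scales understate fold changes of low genes. Only the main edgeR fit, and limma on log2(FPKM + 1) for the guide in untreated cells, were tested on simulated data. No length trend was simulated. Members, gene lists and tests were chosen with earlier results of these data known. The text names every member, up to 3 genes of smallest p per list and comparison, and the 6 genes most like the members (mean of at least 2 CPM, no predicted genes). Irgq, Ifng, Gm43302 and further values of named list genes were chosen after their values were seen. Some regulators are not reported here by name. Every pair of libraries in a group differed by more than counting noise. Figures were drawn with matplotlib 3.10.9.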

Additional observations from a re-analysis of the deposited data

Results flagged for a closer look

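The IR response of Gbp2 differed between guides by a test of the difference itself. It was 2.92 larger on the log2 scale in sgRnf19a cells (log2 fold change 5.39) than in control cells (log2 fold change 2.47), by edgeR's quasi-likelihood test with an adjusted p of 0.0162 (SE 0.42, n = 3 libraries per group). Over 22 alternatives the difference ran from 2.61 to 3.22 and was called in 18, with edgeR, DESeq2 or limma adjusted p from 1.17e-08 to 0.0755. The ribosomal RNA share and the balance of long and short RNAs also moved with IR, and that balance differed between guides too. Their part in the difference was not tested beyond the length and GC correction, which gave 2.61.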

How the results depend on the processing

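Over 23 alternatives (22 for the difference), 810 of 912 log2 fold changes of members kept direction and call, 58 lost the call, 31 gained it and 13 reversed. All 184 for the guide in IR-treated cells, and all with counts divided by 4, kept both. All 13 reversals were for IR in control cells: Gbp7 was 1.14 after the length and GC correction. With the replicate block on column numbers, which is in part confounded with IR, Gbp3 was -0.03, Gbp9 -0.57, Gbp4 -1.24, Gbp10 -1.12 and Gbp6 -0.07. Gbp9 was -0.10 on log2(FPKM + 1) with or without the filter and -0.38 on log2(FPKM + 0.1), and ran from -0.19 to 0.47 without single libraries (-0.06 without control_IR replicate 1 and -0.19 without control_IR replicate 4). Gbp10 was -0.01 on log2(FPKM + 0.1) and ran from -0.08 (without control_IR replicate 4) to 1.24. The median of all genes for IR in control cells was -0.34 on log2(FPKM + 1) with the filter and -0.02 without it. On log2(FPKM + 0.1) it was -0.45. The reversed values on the 2 filtered scales lay above the medians of all genes there. None of the reversed values was called except that of Gbp7. The causes were not tested.

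Members called for IR in control cells (2) were 7 after the length and GC correction, 1 with the replicate block, 1 on each FPKM scale, and 2 to 3 without single libraries. Of all genes, 22.2% were called higher in the main fit, 24.3% after the correction and 22.9% with the block. On log2(FPKM + 1) it was 16.6% with and 6.52% without the filter, and on log2(FPKM + 0.1) 16.1%. Without single libraries it was 17.2% to 23.7%. The 2 members of the main fit are near the share over all genes. For the guide in untreated cells (6 members, 1131 genes) the members called were 3 with no filter and 2 on log2(FPKM + 1) with or without the filter, and 2 to 7 without single libraries. The share of all genes called higher was 3.02% in the main fit and 1.56% with no filter. On log2(FPKM + 1) it was 3.69% with and 1.68% without the filter, and without single libraries 1.83% to 5.08%. Genes called were 1722 by DESeq2, 2825 with only the groups compared and 642 to 2116 without single libraries. With IR, the guide's 6140 genes were 2798 with only the groups compared, 2952 on log2(FPKM + 1) without the filter and 3877 to 7613 without single libraries. For the difference (1 member, 124 genes) members were 5 by DESeq2, 5 with the replicate block, 2 on log2(FPKM + 1) and 0 to 6 without single libraries, and genes were 1615 by DESeq2, 350 after the correction, 2767 with the replicate block, 55 on log2(FPKM + 0.1) and 5 to 2624 without single libraries. Called higher were 0.544% of all genes in the main fit, 4.34% by DESeq2 and 10.8% with the block. It was 0.815% on log2(FPKM + 1) and 0.0256% to 10.6% without single libraries. For IR in sgRnf19a cells 6 to 8 members and 4722 to 8773 genes, and for IR in control cells 7383 to 9732 genes, were called without single libraries. In sgRnf19a cells 13.4% to 21.2% of all genes were then called higher with IR.

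The median of all genes moved by over 0.1 with IR in sgRnf19a cells (-0.02) to 0.09 with upper-quartile scaling, -0.40 on log2(FPKM + 1) and -0.53 on log2(FPKM + 0.1), and with IR in control cells (-0.02) to 0.19, -0.34 and -0.45 on these and 0.09 after the length and GC correction. For the guide in IR-treated cells (0.07) it was -0.05 with upper-quartile scaling and -0.06 after the correction, where the difference (0.09) had -0.07. Same-numbered untreated libraries correlated at -0.16, -0.01 and 0.03 in their deviations from group means, so the numbers were not taken to pair them. In the block fit, IR in sgRnf19a cells was 0.57 for Gbp7 (adjusted p = 0.491) and 1.13 for Gbp9 (adjusted p = 0.0847) by edgeR. Depth limits Gbp8, whose group sums were 4 to 28 counts.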
